A study of Mus musculus with 7 samples.

Results

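The genes described here are 10 members of the lipoprotein system of the liver: the apolipoprotein genes Apoa1, Apoa2, Apoa4, Apoa5, Apob, Apoc1, Apoc3, Apoe and Apom, and Mttp, which encodes the microsomal triglyceride transfer protein. They were taken by gene symbol from the platform annotation, and every probe with 1 of these symbols was used. That gave 15 probes of the 45281 on the array, for 10 of 19057 named genes. Each of the 15 was above background on all 7 arrays, and each passed the filter on dim probes. Liver total RNA from 7 male C57BL/6J mice at postnatal day 28 was measured on Illumina mouse BeadArrays, with 1 array for each sample. The series models fetal alcohol exposure in the mouse, with growth restriction after birth. The 4 control samples are described by the labels only as control liver, and the 3 ethanol samples come from offspring whose dams drank 10% (v/v) ethanol at will from fertilization to gestational day 8.5. No genetic change is named for either group, and the same treatment text stands on both, so the group was read from the sample title.

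Lipoproteins carry triglyceride and cholesterol through the blood in particles coated with apolipoproteins, most of which are made by hepatocytes. In the endoplasmic reticulum Mttp loads lipid onto apolipoprotein B as it is translated, which starts a very low density lipoprotein particle. Apoa1 and Apoa2 are the main proteins of high density lipoprotein (HDL), which takes up cholesterol from tissues. The small exchangeable proteins move between particles and set how fast lipases and receptors act on them.

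None of the 10 genes differed between the groups past the threshold. All 15 probes had adjusted p-values between 0.517 and 0.992 in limma, a linear model with moderated variances and adjustment over all 23829 tested probes. Over all tested probes 0.0210% passed. At an unadjusted p under 0.05 there was 1 of the 15 probes, the first Apom probe, where 8.80% of all tested probes lay. With trended and robust variances 3 of the 15 had an unadjusted p under 0.05, and with variances not moderated 5 did, again with 0 past adjustment. Of the 15 probes 9 had a log2 fold change above 0 (higher in ethanol livers) and 6 below it. The values ran from -0.21 to 0.17 with a median of 0.03. The median over all tested probes was 0.00018. The split depended on the scaling. It was 11 higher and 4 lower without normalization between arrays, with 75th percentile scaling and with cyclic loess.

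**Figure D1:**
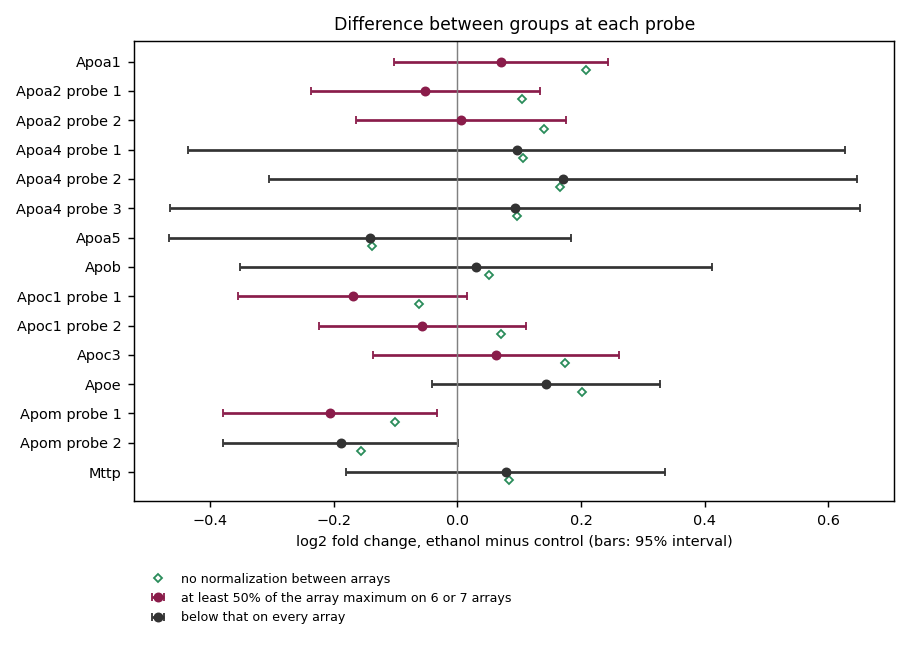
Log2 fold change, ethanol minus control, of each probe (x axis) for the 15 probes (y axis), with 95% intervals. Filled points come from the quantile-normalized fit, open diamonds from the fit without normalization between arrays; all intervals but that of Apom probe 1 include 0, and the diamonds of the probes in dark red lie to the right of their points.

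A missed threshold does not show that the groups were alike, so the 95% intervals give what the arrays leave possible. For Apoa1 the interval of the ethanol level over the control level ran from 0.931-fold to 1.18-fold. The widest intervals belonged to Apoa4, from 0.724-fold to 1.57-fold at the probe ILMN_2834123. The labels name replicates but not litters, so the p-values and intervals rest on the spread between these 7 samples, not between litters. The moderated variances also draw on the spread of all tested probes. Without moderation the SE of the log2 fold change was 0.035 in place of 0.079 for Apoa1. At the Apoa4 probe ILMN_2834123 it was 0.35 in place of 0.25. In whole liver RNA a change in the number of hepatocytes and a change in the RNA made per hepatocyte cannot be told apart.

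The brightness of several probes limits what they can show. A probe was called near the maximum on an array where its intensity was at least 50% of the highest intensity of that array. By this measure 7 of the 15 probes were near the maximum on 6 or 7 of the 7 arrays: those of Apoa1 and Apoc3, both of Apoa2, both of Apoc1, and the first of Apom. A probe of Apoa2 was the brightest of its whole array in control 2, at 57951, and the probe of Apoc3 was the brightest in control 3, at 50423. The probe of Apoe lay between 37.9% and 48.7% of the maximum, and the second probe of Apom between 23.2% and 33.2%. Those of Apob, Apoa4, Apoa5 and Mttp lay at 9.98% or below. The residual SD on the log2 scale was 0.025 to 0.097 at the 7 probes near the maximum and 0.072 to 0.46 at the 8 others, beside a median of 0.13 over all tested probes. Whether bright probes understate a difference was not tested, and no saturation mark was used here.

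**Figure D2:**
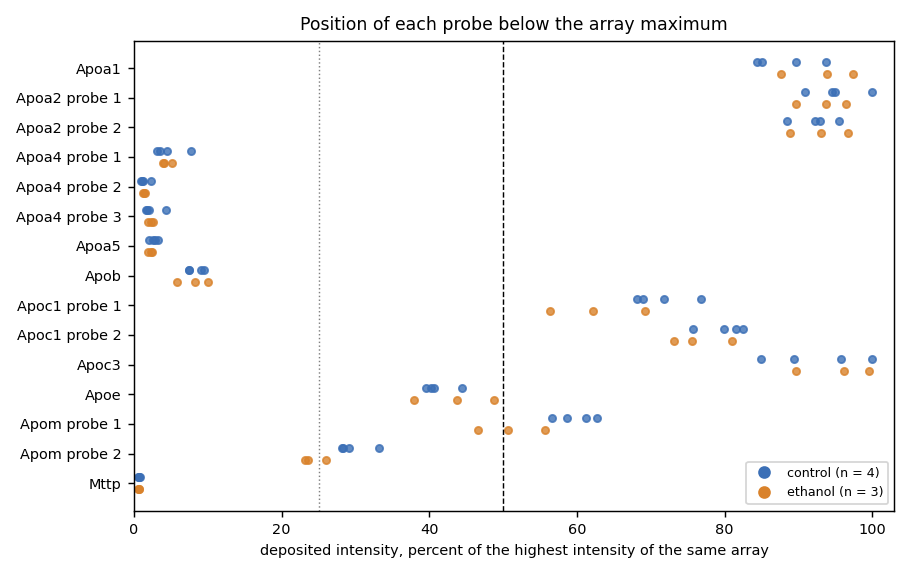
Deposited intensity of each probe as a percent of the highest intensity on the same array (x axis), 1 point per animal, control above and ethanol below within each row. The dashed line marks 50% and the dotted line 25%; the probes of Apoa1, Apoa2, Apoc3 and Apoc1 lie right of the dashed line in all 7 animals, while those of Apob, Apoa4, Apoa5 and Mttp stay under 10%.

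The core of the secreted particle is built by Apob and Mttp. Apob encodes the large, non-exchangeable protein of very low density lipoprotein, on chromosome 12. Its probe (ILMN_2710942) read 3781, 5471, 4581 and 4565 in control animals 1 to 4 and 5244, 3486 and 5766 in ethanol animals 1 to 3. Ethanol 2 was the lowest of all 7 animals and ethanol 3 the highest, so the ethanol range enclosed the control range. The means were 4599 ± 691 (SD, n = 4) and 4832 ± 1194 (SD, n = 3), with a log2 fold change of 0.03 ± 0.17 (SE) and an adjusted p of 0.981 in limma. This value rested on single animals. It was 0.27 without ethanol 2 (adjusted p 0.532 in limma), and it was below 0 without control 1 (-0.04), ethanol 1 (-0.05) or ethanol 3 (-0.12).

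Mttp, on chromosome 3, encodes the subunit that transfers triglyceride to nascent apolipoprotein B. Its probe (ILMN_2628594) read 296, 394, 400 and 405 in the controls and 440, 336 and 418 in the ethanol animals. Control 1 was the lowest animal, while the other 3 controls fell within 394 to 405 and the ethanol values lay on both sides of them. The means were 374 ± 52.2 (SD, n = 4) and 398 ± 54.7 (SD, n = 3), with a log2 fold change of 0.08 ± 0.12 (SE, adjusted p 0.889 in limma). Without control 1 it was -0.0026.

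The partners of this step came from a list of 34 genes for the assembly and secretion of very low density lipoprotein, of which 31 were tested. Of these, 13 were higher and 18 lower with ethanol. In limma 0 passed, beside 0.0313% of all 12769 tested genes, and 6 had an unadjusted p under 0.05, beside 9.13%. The groups did not overlap at 4 genes that were higher and 3 that were lower, beside 4.17% and 4.80% of all tested genes. The median of the list was -0.02 on the log2 scale. The smallest p-values were those of Rbm47, an RNA-binding cofactor of apolipoprotein B mRNA editing (0.34 ± 0.09, adjusted p 0.392, other probes from -0.06 to 0.14), Hspa5, the endoplasmic reticulum chaperone BiP (-0.37 ± 0.11, adjusted p 0.429), and Tm6sf2, a membrane protein that helps to lipidate the particle (0.26 ± 0.08, adjusted p 0.464). Sar1b, the small GTPase of the vesicles that export the particle, had -0.10 ± 0.09, and P4hb, the disulfide isomerase that forms the other subunit of the transfer complex, -0.09 ± 0.09.

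**Figure D3:**
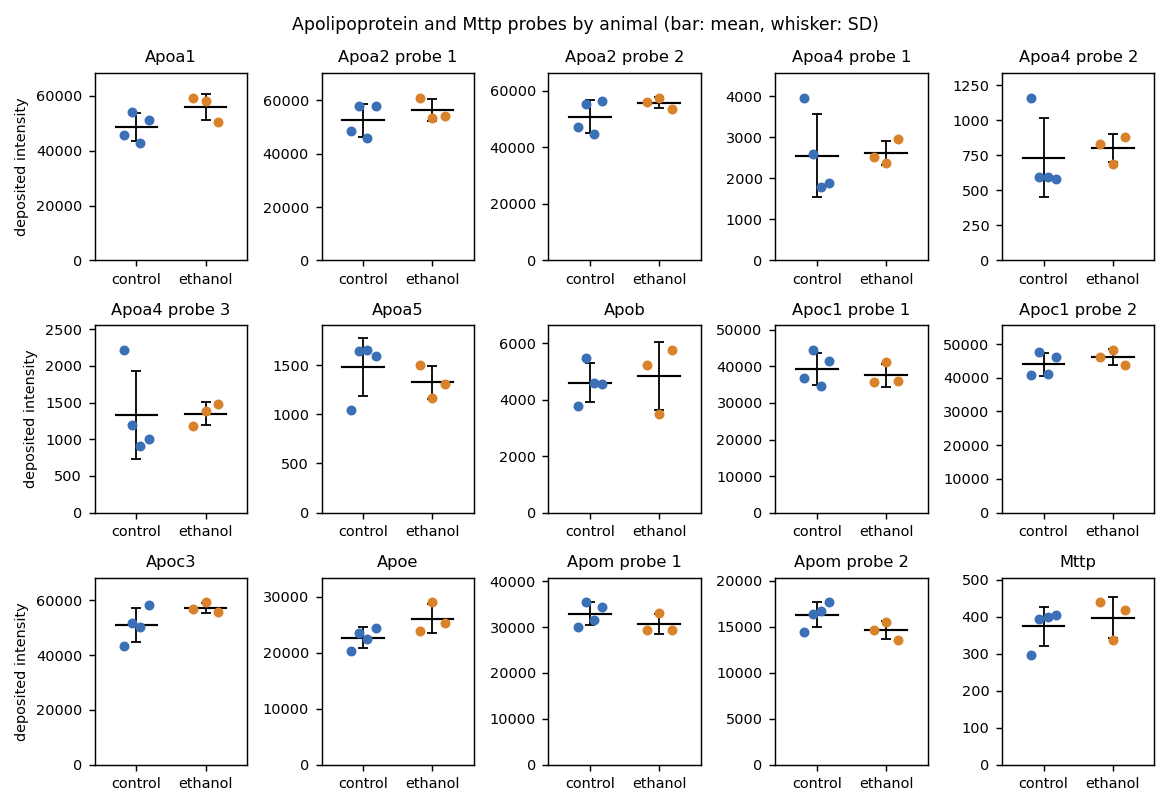
Deposited intensity (y axis, linear and starting at 0, 1 scale per panel) of the 15 probes in the 4 control and 3 ethanol animals. Points are animals, bars are means and whiskers are SDs; the groups overlap in every panel, and control 1 stands above the other controls at the 3 Apoa4 probes and below them at Apoa5 and Mttp.

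The proteins of HDL in this set include those of Apoa1, Apoa2 and Apom. Apoa1 activates the enzyme that esterifies cholesterol in plasma, and its gene lies on chromosome 9 beside Apoc3, Apoa4 and Apoa5. Its probe (ILMN_2623393) read 45902, 54298, 42858 and 51330 in the controls and 59386, 58057 and 50615 in the ethanol animals. Ethanol 1 and ethanol 2 were above all controls, and ethanol 3 was within their range. The log2 fold change was 0.07 ± 0.08 (SE, adjusted p 0.842 in limma) after quantile normalization and 0.21 ± 0.11 (adjusted p 0.623 in limma) without it.

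Apoa2, on chromosome 1, encodes the second most abundant protein of HDL. Its first probe (ILMN_1247156) had intensities of 45837 to 57951 in controls and 53485 to 61002 in ethanol animals, and its second (ILMN_2775957) 44611 to 56516 and 53750 to 57618. The log2 fold changes were -0.05 ± 0.08 and 0.01 ± 0.08 (SE), with adjusted p-values of 0.902 and 0.992 in limma. Without normalization between arrays they were 0.10 and 0.14. The direction at the first probe thus depended on the scaling. At the second probe control 3 was below the other controls, and without it the value was -0.01 (adjusted p 0.982 in limma).

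The top of the intensity scale itself differed between arrays. The 99.9th percentile of intensity was 37250 to 41999 on the control arrays and 41254 to 45529 on the ethanol arrays, while the upper quartiles lay between 50.1 and 51.7 on all 7. Quantile normalization removes such a difference, so that a value near the maximum depends on where the probe ranks on its array. The Apoa1 probe ranked between 8 and 26 of all probes, and the first Apoa2 probe between 1 and 25. All 7 probes near the maximum had a higher log2 fold change without normalization between arrays, and 2 of them, at Apoa2 and Apoc1, changed sign. The direction of this shift was not particular to them. Every other member probe but the second of Apoa4 (0.170 with and 0.166 without normalization) also rose, by less, such as that of Apoe (0.14 and 0.20). What set the difference at the top of the scale was not tested.

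Apom, on chromosome 17, encodes a lipocalin of HDL that binds sphingosine 1-phosphate. The first probe (ILMN_2769418) read 30005, 35456, 31650 and 34404 in the controls and 29447, 33158 and 29275 in the ethanol animals. The second (ILMN_2916782) read 14406, 16377, 16749 and 17667 in the controls and 14660, 15536 and 13595 in the ethanol animals. On this deposited scale the groups overlapped at both probes, with ethanol 2 above control 1. After quantile normalization all 3 ethanol values were below all 4 control values at both, by 0.17 to 0.23 from the control mean on the log2 scale.

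Apom had the largest fitted differences below 0 among the members. The log2 fold changes were -0.21 ± 0.08 (SE, unadjusted p 0.024, adjusted p 0.517) and -0.19 ± 0.09 (SE, unadjusted p 0.051, adjusted p 0.569) in limma, so neither passed. The 95% interval at the first probe ran from 0.769-fold to 0.978-fold. In runs without 1 animal the first probe gave -0.23 to -0.18 and the second -0.23 to -0.16. Without normalization between arrays the values were -0.10 and -0.16, and the groups then overlapped at both probes.

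Groups that did not overlap after quantile normalization were found at 3 of the 15 probes, all lower in ethanol livers: both Apom probes and the second Apoc1 probe. Over all tested probes 4.60% were lower and 4.12% higher without overlap. Without normalization between arrays, where the same shares were 3.57% and 5.24%, and with 75th percentile scaling (4.31% and 4.52%), 0 of the 15 probes were without overlap. With cyclic loess (4.48% and 4.24%) both Apom probes were lower and the Apoa1 probe higher. The count therefore rested on the scaling, and probes of 1 gene are not independent.

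A RefSeq window of 250 bases upstream of a gene start was available for 8 of the 10 members, in assembly GRCm38.p6. The windows of 4 genes are given here, that of Apom, which had the lowest p, and those of Apoa4, Apoa5 and Mttp, where control 1 stood apart from the other controls, so that the genes can be identified at the sequence level. Capitals mark a match to 1 of 5 searched motifs, on either strand, and the sequences run 5′ to 3′ on the gene's strand.
Apom, chr17:35131802-35132051, minus strand: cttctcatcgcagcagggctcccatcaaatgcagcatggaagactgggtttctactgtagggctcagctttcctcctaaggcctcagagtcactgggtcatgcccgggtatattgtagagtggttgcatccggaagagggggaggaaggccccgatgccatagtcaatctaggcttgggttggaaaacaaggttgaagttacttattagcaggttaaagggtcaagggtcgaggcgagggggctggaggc
Apoa4, chr9:46240594-46240843, plus strand: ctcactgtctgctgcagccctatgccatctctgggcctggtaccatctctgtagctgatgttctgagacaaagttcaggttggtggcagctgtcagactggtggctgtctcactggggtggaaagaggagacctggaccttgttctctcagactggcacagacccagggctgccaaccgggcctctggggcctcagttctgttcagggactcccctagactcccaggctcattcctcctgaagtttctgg
Apoa5, chr9:46268358-46268607, plus strand: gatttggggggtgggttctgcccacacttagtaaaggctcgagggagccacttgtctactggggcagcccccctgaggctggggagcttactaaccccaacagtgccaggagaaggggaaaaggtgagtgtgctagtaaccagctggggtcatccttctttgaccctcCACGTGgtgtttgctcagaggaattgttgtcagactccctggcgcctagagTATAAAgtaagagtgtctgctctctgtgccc
Mttp, chr3:138143419-138143668, minus strand: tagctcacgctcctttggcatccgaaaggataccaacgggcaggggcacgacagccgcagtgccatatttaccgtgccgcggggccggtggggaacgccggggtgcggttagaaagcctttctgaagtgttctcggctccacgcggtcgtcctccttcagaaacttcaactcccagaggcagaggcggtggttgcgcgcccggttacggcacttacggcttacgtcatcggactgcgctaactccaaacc

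The motifs were AGGTCA, the core hexamer of many nuclear receptor sites, CAAAGTCCA, a form of the HNF4 site, the palindromic HNF1 consensus, CACGTG, an E-box, and TATAAA, the TATA box. Of the 4 windows shown only that of Apoa5 held a match, a CACGTG starting 82 bases and a TATAAA starting 31 bases before the gene start. This is the more upstream of 2 annotated starts of Apoa5, whose windows overlap. Over the 12 windows of 8 members TATAAA was found in 5, of Apoa2, Apoa5, Apob and Apoe, and the match in Apoe lay on both strands with the letters overlapping. Among all 32851 windows of the same length 12.4% held TATAAA and 6.02% held CACGTG. In 1 member window, of Apoa2, AGGTCA was found, as it was in 14.0% of all windows. CAAAGTCCA and the HNF1 consensus were in no member window and in 0.384% and 0.0609% of all windows. A match is a run of letters, not a bound site.

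Exchangeable apolipoproteins linked to triglyceride clearance are encoded by Apoc3, Apoc1, Apoa5 and Apoa4. Apoc3 restrains lipoprotein lipase and the uptake of remnants. Its probe (ILMN_2651539) read 43459, 51846, 50423 and 58206 in the controls and 56742, 59366 and 55562 in the ethanol animals. The ethanol animals lay at the upper end of the control range, with control 4 among them. The log2 fold change was 0.06 ± 0.09 (SE, adjusted p 0.884 in limma), and 0.17 without normalization between arrays. It was 0.02 without control 1 and 0.11 without control 3.

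Apoc1, on chromosome 7 beside Apoe, encodes a small inhibitor of remnant uptake. Its probes did not give the same value. The first (ILMN_1228469) had 34783 to 44546 in controls and 35655 to 41271 in ethanol animals, a log2 fold change of -0.17 ± 0.08 (SE, unadjusted p 0.069, adjusted p 0.605 in limma), which was -0.06 without normalization between arrays and -0.07 with 75th percentile scaling. The second (ILMN_2599794) had 40894 to 47774 and 43675 to 48284, a log2 fold change of -0.06 ± 0.08 (SE, adjusted p 0.872 in limma), and it was 0.07 without normalization between arrays. Both ranges overlapped on the deposited scale.

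Apoa5 activates the lipolysis of triglyceride-rich particles and is made almost wholly by the liver. Its probe (ILMN_2641301) read 1042, 1645, 1656 and 1592 in the controls and 1498, 1168 and 1308 in the ethanol animals. Control 1 was the lowest of the 7, and the other 3 controls were above all 3 ethanol animals. The means were 1484 ± 296 (SD, n = 4) and 1325 ± 165 (SD, n = 3), with a log2 fold change of -0.14 ± 0.15 (SE, adjusted p 0.83 in limma). Without control 1 it was -0.28 ± 0.11 (unadjusted p 0.025, adjusted p 0.680 in limma), and without ethanol 2 it was -0.05 ± 0.16 (adjusted p 0.953 in limma).

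Apoa4 encodes a plasma apolipoprotein that in the mouse is made by both liver and intestine. It had 3 probes. The first (ILMN_1250349) read 3968, 2584, 1778 and 1875 in the controls and 2527, 2379 and 2958 in the ethanol animals. The second (ILMN_2754104) read 1162, 594, 597 and 584 in the controls and 830, 688 and 882 in the ethanol animals. The third (ILMN_2834123) read 2218, 1189, 911 and 1003 in the controls and 1174, 1385 and 1480 in the ethanol animals. Control 1 was the highest of all 7 animals at each of the 3 probes, and ethanol 3 was next at each.

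Control 1 thus made Apoa4 the member with the widest spread. Between the lowest and the highest control the normalized level differed 2.30-fold, 1.94-fold and 2.45-fold at the 3 probes. The log2 fold changes were 0.10 ± 0.24, 0.17 ± 0.22 and 0.09 ± 0.25 (SE), with adjusted p-values of 0.943, 0.864 and 0.948 in limma. Without control 1 they were 0.35 ± 0.15, 0.41 ± 0.11 and 0.37 ± 0.13, with unadjusted p-values of 0.036, 0.0044 and 0.014 and adjusted p-values of 0.680, 0.515 and 0.636 in limma. The 3 controls that remain were below all ethanol animals at the second probe and overlapped them at the other two. Of 12 genes that mark the small intestine 10 were not above background on any array, among them Fabp2, Vil1, Sis and Alpi. Cdx1 was above background on 5 of the 7 arrays, with means of 29.9 in controls and 21.7 in ethanol animals, and Anpep on all 7. The summed intensity of all 12 was 296 to 359 in controls and 275 to 430 in ethanol animals, most of it from Anpep (means of 279 and 325), a peptidase that is not confined to the intestine.

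**Figure D4:**
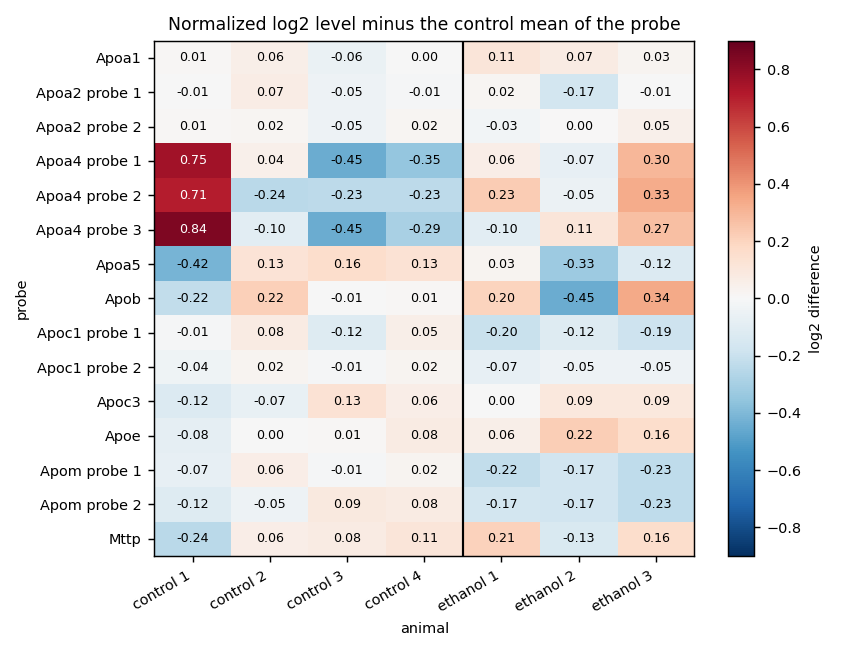
Normalized log2 level of each probe (rows) in each animal (columns) minus the mean of the 4 controls; red is above and blue below that mean. Control 1 is at 0.71 to 0.84 in the 3 Apoa4 rows and at -0.42 in the Apoa5 row, and both Apom rows are below 0 in all 3 ethanol animals.

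Apoe, on chromosome 7, encodes the ligand by which remnants bind receptors of the liver, and macrophages make it as well as hepatocytes. Its probe (ILMN_1216042) read 20228, 23564, 22402 and 24469 in the controls and 23948, 29038 and 25295 in the ethanol animals. Ethanol 2 and ethanol 3 were above all controls and ethanol 1 was below control 4. The means were 22666 ± 1832 (SD, n = 4) and 26094 ± 2637 (SD, n = 3). The log2 fold change was 0.14 ± 0.08 (SE, unadjusted p 0.114, adjusted p 0.665 in limma), and 0.10 without ethanol 2.

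The levels of macrophage markers differed between the ethanol animals. Of 16 markers of Kupffer cells and macrophages 15 were above background on at least 3 arrays and Cd5l on none. Of the 15 tested 14 were higher with ethanol (median difference 0.20 on the log2 scale), beside 6326 of all 12769 tested genes. In limma 0 passed, beside 0.0313% of all tested genes, and 3 had an unadjusted p under 0.05, beside 9.13%. The summed intensity of the 16 markers was 8321 to 9488 in controls and 7650 to 12747 in ethanol animals. Relative to the control mean, the mean log2 level of the list was 0.39, 0.37 and -0.14 in ethanol animals 1 to 3, where Apoe was at 0.06, 0.22 and 0.16. The part of macrophages in the Apoe values was not tested.

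The tissue label held against hepatocyte markers, of which 16 of 17 were above background on at least 3 arrays. Their summed intensity was 398535 to 463375 in controls and 449951 to 485249 in ethanol animals. Of the 17 tested 12 had a log2 fold change above 0 and 5 below 0, with a median of 0.05. In limma 0 passed, beside 0.0313% of all tested genes, and 0 had an unadjusted p under 0.05, beside 9.13%. The gene for tyrosine aminotransferase, Tat, was not above background on any array. The other hepatocyte markers differed widely in level. Fgb had means of 38.4 in controls and 41.0 with ethanol, Alb 475 and 459, and Trf 50955 and 57510. Stellate cell and fibroblast markers had a log2 fold change below 0 at 13 of 14 genes, beside 6443 of all 12769 tested genes. In limma 0 passed and 4 had an unadjusted p under 0.05, beside the same shares. The groups did not overlap at 3 genes, all lower, beside 4.80%. The mean log2 level of the list was -0.27, -0.21 and -0.23 in the 3 ethanol animals and -0.21 to 0.18 in the controls. Lrat had the lowest log2 fold change (-1.19 ± 0.46), while those of Des, Col1a1 and Pdgfrb were -0.04 to -0.01. Pdgfrb was not above background on any array. The part of stellate cells and fibroblasts in the values of the members was not tested.

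No other apolipoprotein passed the test either. Of 16 listed genes 13 were tested, 9 with a log2 fold change above 0 and 4 below it, and a median of 0.09. In limma 0 passed and 3 had an unadjusted p under 0.05, beside 9.13% of all tested genes. The smallest p-values belonged to Apol9b, of an interferon-responsive family (0.48 ± 0.15, adjusted p 0.456), Saa4, a constitutive serum amyloid A protein of HDL (0.55 ± 0.19, adjusted p 0.481), and Apon (0.44 ± 0.19, adjusted p 0.548). Apol9b and its near-identical neighbour Apol9a (0.22) may share signal. Without ethanol 1 Apol9b had 0.70 with an adjusted p of 0.0470 in limma, and Saa4 had 0.35 with an adjusted p of 0.655. Apoc2, the cofactor that lipoprotein lipase needs, had 0.07 ± 0.09.

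Of 10 tested genes of HDL formation and remodelling, 6 were higher and 4 lower, 0 passed in limma and 4 had an unadjusted p under 0.05, beside 9.13% of all tested genes. The median was 0.01, and it ran from -0.03 to 0.05 in runs without 1 animal. They were led by Pon3, a lactonase carried on HDL (-0.36 ± 0.10, adjusted p 0.427, other probes -0.27 and -0.07), Pltp, the phospholipid transfer protein (0.31 ± 0.13, adjusted p 0.537), and Lcat, the enzyme that Apoa1 activates (0.24 ± 0.10, adjusted p 0.556, other probe 0.21). Of 9 tested receptors and uptake genes 6 were higher and 3 lower, 0 passed in limma and 2 had an unadjusted p under 0.05, beside 9.13% of all tested genes, with a median of 0.02. Vldlr, a receptor of triglyceride-rich particles, had -0.90 ± 0.14 (adjusted p 0.132, other probes -0.62 and -0.59). Its mean intensity was 194 in controls and 73.3 with ethanol. Lsr, a lipolysis-stimulated receptor, had 0.37 ± 0.10 (adjusted p 0.392), and Lrpap1, a chaperone of these receptors, 0.11 ± 0.08 (adjusted p 0.733). Vldlr had -1.02 without ethanol 1, with an adjusted p of 0.0470. It had -1.52 without background correction (adjusted p 0.335), and without moderation its adjusted p was 0.575.

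Among 9 tested genes of triglyceride lipolysis in plasma, 3 had an unadjusted p under 0.05 in limma, beside 9.13% of all tested genes. The 1 that passed, beside 0.0313% of all tested genes, was Angptl8, a fed-state inhibitor of lipoprotein lipase. Its intensity was 2538, 3081, 3722 and 4137 in the controls and 672, 1353 and 788 in the ethanol animals, so the groups were far apart. The log2 fold change was -1.81 ± 0.21 (SE, adjusted p 0.0394 in limma). The call was lost without control 1, 2, 3 or 4 or ethanol 3, with adjusted p-values from 0.0752 to 0.181, while the log2 fold change lay between -2.07 and -1.62 in all runs without 1 animal. It was also lost without background correction (adjusted p 0.185), with probes above background only (0.0665), with trended and robust variances (0.114) and without moderation (0.528). The median of the list was 0.07, with 6 genes higher and 3 lower. Angptl8 works with other angiopoietin-like proteins on the enzyme that Apoc2, Apoc3 and Apoa5 also act on, and the last 3 of these genes had log2 fold changes of 0.07, 0.06 and -0.14.

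The list of transcription factors of apolipoprotein genes, with the coactivators Ppargc1a and Ppargc1b, gave 13 higher and 15 lower of 28 tested. In limma 0 passed the threshold and 4 had an unadjusted p under 0.05, beside 9.13% of all tested genes. The median was -0.02, and it ran from -0.07 to 0.03 in runs without 1 animal. Hnf4a, a main activator of these genes, had 0.17 ± 0.16 (adjusted p 0.811). The smallest p-values were those of Pparg, a regulator of lipid storage (-0.48 ± 0.08, adjusted p 0.166, other probe -0.08), Nr5a2, a nuclear receptor of bile acid and cholesterol genes (-0.71 ± 0.16, adjusted p 0.336, other probes -0.44 and -0.03), and Ppara, the receptor that drives fatty acid oxidation (-0.34 ± 0.12, adjusted p 0.472). Creb3l3, an activator of Apoa4 and Apoa5 in the mouse liver, had 0.05 ± 0.16.

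Some apolipoprotein genes respond to feeding, so lists of that state were read beside them. Of 14 tested fasting-induced genes 8 were higher and 6 lower, 0 passed in limma and 3 had an unadjusted p under 0.05, beside 9.13% of all tested genes. The median was 0.05, and it was -0.10 without control 1 and -0.07 without ethanol 1. Ehhadh, a peroxisomal oxidation enzyme, had -0.46 ± 0.11 (adjusted p 0.354), Fgf21, a fasting hormone, -0.83 ± 0.25 (adjusted p 0.433), and Ppargc1a, a coactivator of fasting genes, -0.55 ± 0.19 (adjusted p 0.480). Of 16 tested feeding-induced genes only Angptl8 passed in limma, beside 0.0313% of all tested genes. At an unadjusted p under 0.05 there were 5 of the 16, beside 9.13%. Of the 16 genes 11 were higher and 5 lower, with a median of 0.07. That median was 0.04 without control 2 and 0.22 without ethanol 2. The part of feeding state in the values of the members was not tested, and the labels give no feeding time.

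**Figure D5:**
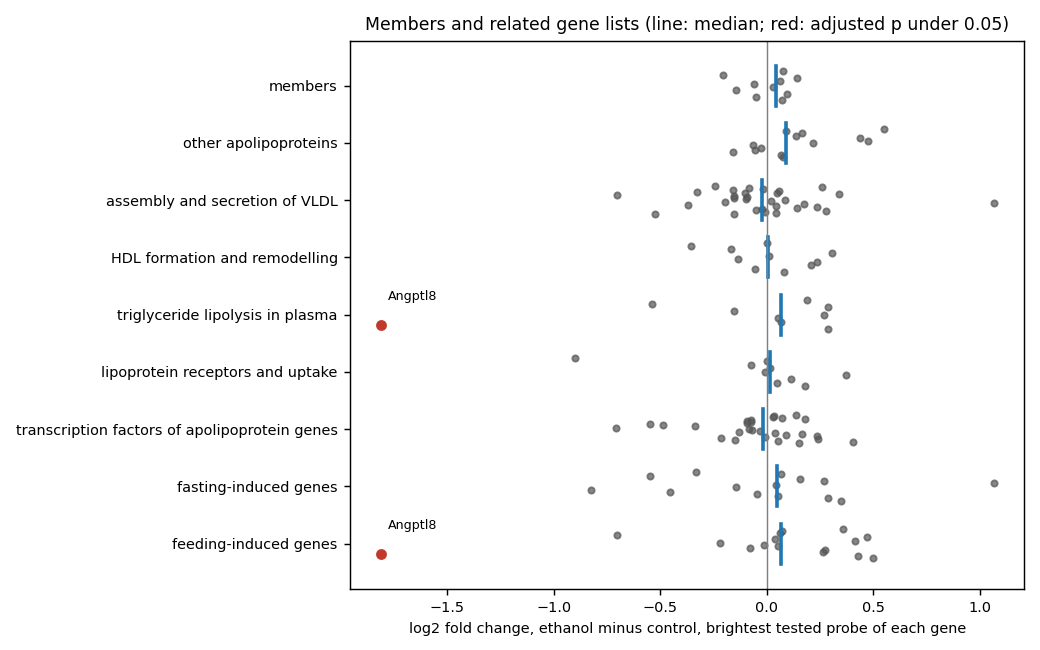
Log2 fold change, ethanol minus control (x axis), of the brightest tested probe of each gene, by list (y axis). Blue lines are medians. Red marks Angptl8, the gene past the threshold, in both the lipolysis and the feeding-induced list. The medians of the lists plotted lie between -0.02 and 0.09, and the members span a narrower range than the lists of assembly, receptors and transcription factors.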

How the data were processed

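The authors' deposited intensities of 7 arrays (4 control, 3 ethanol) were used, on a linear scale. The submitters' processing notes name GenomeStudio, with no version. The background correction and normalization chosen there are not given in the sources used here. The deposited values go below 0 (lowest -30.3), and the upper quartiles of the arrays lie between 50.1 and 51.7. A second table, of signals and detection p-values in 14 columns, was not used, because its column names match no sample label.

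Intensities were corrected with normexp (offset 50), taken to log2 and quantile normalized in limma 3.58.1 (R 4.3.3). A fold change on this offset scale understates that of dim probes. Probes that exceeded the median of their array on 3 or more arrays were tested. Above background means an intensity over 3 times the noise SD, taken from the negative intensities of that array (limits of 21.3 to 26.9). The two-sided moderated test of limma (lmFit, eBayes) was used, p-values were adjusted by Benjamini-Hochberg across the 23829 probes, and the threshold was 0.05. The code was tested on simulated data. Intervals are 95% from the moderated variances. The number of arrays limits all precision.

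Of all probes 34885 had 1 gene symbol, 18 several and 10378 none. Symbols were updated through the Entrez ID in the RefSeq table of GRCm38.p6 (34807 matched). Lists are given by the brightest tested probe of each gene. All member probes were to be named, and of each list the genes past the threshold, or else the 3 with the smallest p. Genes named besides these (Sar1b, P4hb, Apol9a, Apoc2, Hnf4a, Creb3l3) were chosen after their values were seen. Members and lists were chosen with earlier results of these data known. The alternatives were other backgrounds, scalings, filters and variance models, a replicate block, and runs without 1 animal.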

Additional observations from a re-analysis of the deposited data

Results flagged for a closer look

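Of the 34 probes described, 7 had 1 control animal far from the other 3 by Dixon's test on normalized log2 values, and 4 of the 7 belong to the apolipoproteins and Mttp. Chance flags about 5% of such groups, and the probes share the same 4 animals. Control 1 stood apart at 4 of the 7. It was high at the second Apoa4 probe (1162, others 584 to 597) and at Pparg (315, others 280 to 287). It was low at Apoa5 (1042, others 1592 to 1656) and at Mttp (296, others 394 to 405). Control 3 stood apart at the other 3, low at the second Apoa2 probe (44611, others 47252 to 56516) and at Tm6sf2 (474, others 510 to 526), and high at Hspa5 (128, others 79.8 to 86.5). Fits without these animals are given above for the 4 member probes. Without control 3 the log2 fold change of Hspa5 was -0.28 and that of Tm6sf2 0.22, and without control 1 that of Pparg was -0.44.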

How the results depend on the processing

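Under 17 other settings the number of member probes past the threshold stayed at 0, with a lowest adjusted p of 0.461 in limma. The median log2 fold change of the members was 0.10 without normalization between arrays and 0.088 with cyclic loess, and -0.054 to 0.046 in runs without 1 animal. Leaving out the probes near the maximum at 50% or at 25% gave 0.085. At 25% there were 9 such probes in place of 7. Direction changed with scaling for the first Apoa2 probe (0.10 without normalization, 0.093 with the 75th percentile, 0.062 with cyclic loess) and the second Apoc1 probe (0.070, 0.058 and 0.031). With the replicate block, which leaves out control 4, the Apoa4 probes ILMN_1250349 and ILMN_2834123 gave -0.022 and -0.0040, and the count over all tested probes was 24. Of the same-numbered pairs (r of -0.19, 0.085 and 0.20) only that of number 3 correlated best with its own number in both directions. Runs without 1 animal spanned 0 for Apoa2 (-0.080 to 0.0048 and -0.012 to 0.022), Apoa4 (-0.054 to 0.35 and -0.058 to 0.37), Apob (-0.12 to 0.27) and Mttp (-0.0026 to 0.18). Over all settings 20 values of member probes changed direction and 235 did not, and none did among the other named genes. The count of 5 probes over the whole array was 3 with an offset of 16, 0 without background correction, 8 without a filter, 0 with probes above background only, 1 with trended and robust variances, 0 without moderation, and 0 to 27 in runs without 1 animal. The count of 1 listed gene (Angptl8) was 0 without background correction, with probes above background only, with either other variance model and with the mean of the probes of each gene, and 0 to 3 in runs without 1 animal. The cause of these changes was not tested.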

Other observations

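Genes beside the apolipoproteins that were picked after their values were seen give further values for the lipoprotein system. A1cf, the RNA-binding partner that directs the editing of apolipoprotein B mRNA, had a mean intensity of 377 in controls and 231 with ethanol, and a log2 fold change of -0.52 ± 0.18 (SE, unadjusted p 0.017, adjusted p 0.481 in limma) with no overlap between the groups, while the editing enzyme Apobec1 had 0.05 ± 0.15. Lpl, lipoprotein lipase, had 11216 and 7642, a log2 fold change of -0.54 ± 0.17 (SE, adjusted p 0.456 in limma), also with no overlap. Cideb, a lipid droplet protein that enlarges the nascent particle, had 3803 and 4622 (0.28 ± 0.11, adjusted p 0.517). Over all tested genes 4.80% were lower and 4.17% higher without overlap.

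Apoc4, the neighbour of Apoc1 and Apoe on chromosome 7, had 37075 and 35919, a log2 fold change of -0.16 ± 0.08 (SE, adjusted p 0.621 in limma). In control 1, where Apoa4 was highest and Apoa5 and Mttp were lowest, Fgf21 was at 603 against 207 to 359 in the other controls. Ppargc1a, like Fgf21 in the fasting-induced list, was at 197 against 107 to 172. That list had 16 genes with a probe, of which 3 were not above background on any array. Relative to the control mean, the mean log2 level of the 16 was -0.19 in control 1. It was 0.0012 to 0.17 in the other controls. The feeding state of control 1 was not tested.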
